A study of Mus musculus with 9 samples.

Results

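The genes of the nuclear respiratory chain were compared between young and old mouse brain. They were chosen by symbol, as the protein-coding genes named Nduf, Sdha to Sdhd, Uqcr, Cyc1, Cycs, Cox4 to Cox8 and Atp5. Of 109 symbols of that form in the annotation, 96 were protein-coding, 12 were processed pseudogenes and 1 was a long non-coding RNA. The count table held 95 of the 96 among its 49315 gene IDs, and 93 of these had enough counts to be tested, beside 18492 genes in all. The 2 that were not tested were Cox7b2 and Cox8c, which belong to the tissue isoforms of complex IV. Whole brains of wild type male C57BL/6J mice were sequenced after polyA selection, 5 from young mice (3 months) and 4 from old mice (33 months), with 14229259 to 21150439 counts per library. The comparison asks which of these transcripts differ in level between the 2 ages. Levels are given in CPM (counts scaled to a common library total), and old was compared with young by the quasi-likelihood test of edgeR, with p-values adjusted by Benjamini-Hochberg over all genes tested. In whole tissue, fewer cells of a type and less RNA per cell cannot be told apart.

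The respiratory chain sits in the inner mitochondrial membrane. Complex I (NADH dehydrogenase) and complex II (succinate dehydrogenase) pass electrons to ubiquinone, complex III passes them to the small carrier cytochrome c, and complex IV (cytochrome c oxidase) passes them to oxygen. Complexes I, III and IV pump protons, and complex V (ATP synthase) lets the protons return and makes ATP, on which neurons depend heavily. Complex II is encoded wholly in the nucleus, whereas the others also hold subunits encoded by the mitochondrial genome. Core subunits carry the catalytic parts, supernumerary subunits surround and stabilise them, and assembly factors help to build a complex without remaining in it.

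The subunit genes are short and highly expressed. The median exon length of the 95 genes was 1587 bases, against 3883 for all genes tested, and the median log2 CPM was 6.11 against 3.95. Per length, in TPM (transcript counts scaled by gene length and library), the median gene of complex IV stood at 258 TPM, followed by complex III (160 TPM), complex V (145 TPM), complex I (137 TPM) and complex II (103 TPM). Cycs stood at 51.7 TPM, the median assembly factor at 28.7 TPM and the median tissue isoform at 5.86 TPM. An exon of a gene on the opposite strand overlapped 29 of the 95 genes. Since the sources used here do not say whether these libraries were stranded, reads of such partners cannot be told apart, and this touches Atp5d (overlapped by Cbarp) and Atp5f1 (overlapped by Wdr77) below. Reads that also match a pseudogene copy were not counted, because the authors kept only uniquely mapped reads.

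Before the values, the promoters of 4 genes are shown. Atp5g1, Atp5g2 and Atp5g3 encode the same mature c subunit, the protein that forms the rotating ring of ATP synthase, and differ in their import peptides and promoters. Cycs encodes cytochrome c. These 4 were chosen because Atp5g1 and Cycs had the smallest adjusted p-values among the 95 genes, while Atp5g2 and Atp5g3 did not pass the test. The 250 bases before each RefSeq start are written 5′ to 3′ on the strand of the gene (build GRCm38.p6), with capitals for matches to any of 7 motifs, searched on both strands. These were the NRF1 motif (GCGCA and GCGC with any base between them), an ETS motif bound by GABPA (CCGGAAG), a YY1 motif (AAGATGGCG), the cAMP response element or CRE (TGACGTCA), an ERR motif (TCAAGGTCA), the GC box (GGGCGG) and the CCAAT box (CCAAT). The promoters lie at chr11:96075632-96075881 (minus strand) for Atp5g1, chr15:102671048-102671297 (minus strand) for Atp5g2, chr2:73911327-73911576 (minus strand) for Atp5g3 and chr6:50566570-50566819 (minus strand) for Cycs.
Atp5g1: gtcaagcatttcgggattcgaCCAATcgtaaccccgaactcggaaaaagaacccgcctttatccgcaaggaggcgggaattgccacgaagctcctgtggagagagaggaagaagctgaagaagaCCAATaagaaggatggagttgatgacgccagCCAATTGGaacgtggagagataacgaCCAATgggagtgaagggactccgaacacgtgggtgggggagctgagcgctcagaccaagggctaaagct
Atp5g2: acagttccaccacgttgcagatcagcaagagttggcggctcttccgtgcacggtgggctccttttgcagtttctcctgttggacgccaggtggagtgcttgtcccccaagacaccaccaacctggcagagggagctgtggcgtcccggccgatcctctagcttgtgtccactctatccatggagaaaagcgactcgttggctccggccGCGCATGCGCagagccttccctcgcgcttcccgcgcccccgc
Atp5g3: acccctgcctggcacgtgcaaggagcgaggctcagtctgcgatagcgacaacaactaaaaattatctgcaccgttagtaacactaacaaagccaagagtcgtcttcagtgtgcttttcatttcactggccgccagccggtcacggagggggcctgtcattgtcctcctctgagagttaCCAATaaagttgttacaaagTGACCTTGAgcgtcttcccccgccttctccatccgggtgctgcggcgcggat
Cycs: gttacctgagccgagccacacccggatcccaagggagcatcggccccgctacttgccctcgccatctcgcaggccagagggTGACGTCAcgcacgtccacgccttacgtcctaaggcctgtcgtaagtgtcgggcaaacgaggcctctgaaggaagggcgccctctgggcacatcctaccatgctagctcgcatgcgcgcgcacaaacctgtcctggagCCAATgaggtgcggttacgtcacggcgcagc

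The Atp5g1 promoter held 5 CCAAT box matches, 1 of them on the other strand and overlapping its neighbour by 2 bases, and none of the other motifs. The Atp5g2 promoter held 1 NRF1 match, from -42 to -33 before the start. The Atp5g3 promoter held a CCAAT box from -72 to -68 and an ERR match from -52 to -44, and the Cycs promoter a CRE from -169 to -162 and a CCAAT box from -31 to -27. A match is a string of letters and not a measured binding site. Only exact matches were counted. The Cycs promoter holds tcgcatgcgc, which differs from the NRF1 motif in its first base alone. Cycs was therefore counted among the genes without an NRF1 match. RefSeq promoters were found for 75 of the 95 genes, 80 promoters in all. The genes without one include Atp5f1 and Uqcrq, which passed the test, so the counts by motif below do not cover them. The NRF1 letters stood in 18.8% of these 80 promoters, against 3.74% of 32851 promoters of all genes, and the ETS letters in 17.5% against 6.91%. The CRE stood in 6.25% against 1.55%, the YY1 letters in 1.25% against 0.606%, the ERR letters in 1.25% against 0.387%, the GC box in 36.3% against 32.7% and the CCAAT box in 43.8% against 33.8%. The median log2 fold change between the ages was -0.03 for the 14 tested genes with an NRF1 match and -0.06 for the 60 without, with 0 of the 14 past the test (at an adjusted p under 0.05). It was -0.05 for the 14 with an ETS match, 1 of which passed the test, and -0.06 for the 60 without. For the CCAAT box it was -0.05 for 33 tested genes with a match, 4 of which passed, and -0.06 for the 41 without. For the GC box it was -0.04 for 28 genes, 0 of which passed, and -0.07 for the 46 without. For the CRE it was -0.10 for 5 genes, 1 of which passed, and -0.05 for the 69 without.

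Of the 93 genes tested, 9 were lower in old brain (adjusted p under 0.05, edgeR) and 0 were higher, and DESeq2 gave the same counts. At an unadjusted p under 0.05, 22 were lower and 2 higher. Over all genes tested, 4.89% were called lower and 6.09% higher. Among the 7614 genes whose mean log2 CPM lay in the range of the structural subunits (4.57 to 9.86), 8.35% were called lower and 6.95% higher, so the share of 9.68% among the 93 genes was near the background of equally abundant genes. The differences were small. Atp5g1 fell by the most of the 9 genes, 13.0%, and Atp5f1 by the least, 8.8%, and 0 of the 93 genes passed an absolute log2 fold change of 0.58 together with the test, which 2.50% of all genes did. More genes lay below 0 than were called. Of the 93 genes, 74 (79.6%) had a log2 fold change below 0, against 50.0% of all genes and 53.6% of the equally abundant ones. All were measured in the same 9 mice, so they are not independent of each other. The mean log2 CPM over the 95 genes ran from 5.61 to 5.69 in the young and from 5.55 to 5.63 in the old mice, with overlap. The median log2 fold change was -0.05 over the 93 genes and -0.00 over all genes. In 12 genes every old mouse stood below every young mouse (6.08% of all genes, and 9.84% of the equally abundant ones), and in 0 genes every old mouse stood above (6.50% of all genes). On the authors' TPM scale, tested with limma on log2(TPM + 1), the median of all genes lay at -0.14 and that of the 93 genes at -0.22, and 0 of the 93 genes passed the test, with 1.55% of all genes called lower. Without young replicate 5, 5 of the 93 genes were lower, and without any other single mouse 6 to 8.

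**Figure D1:**
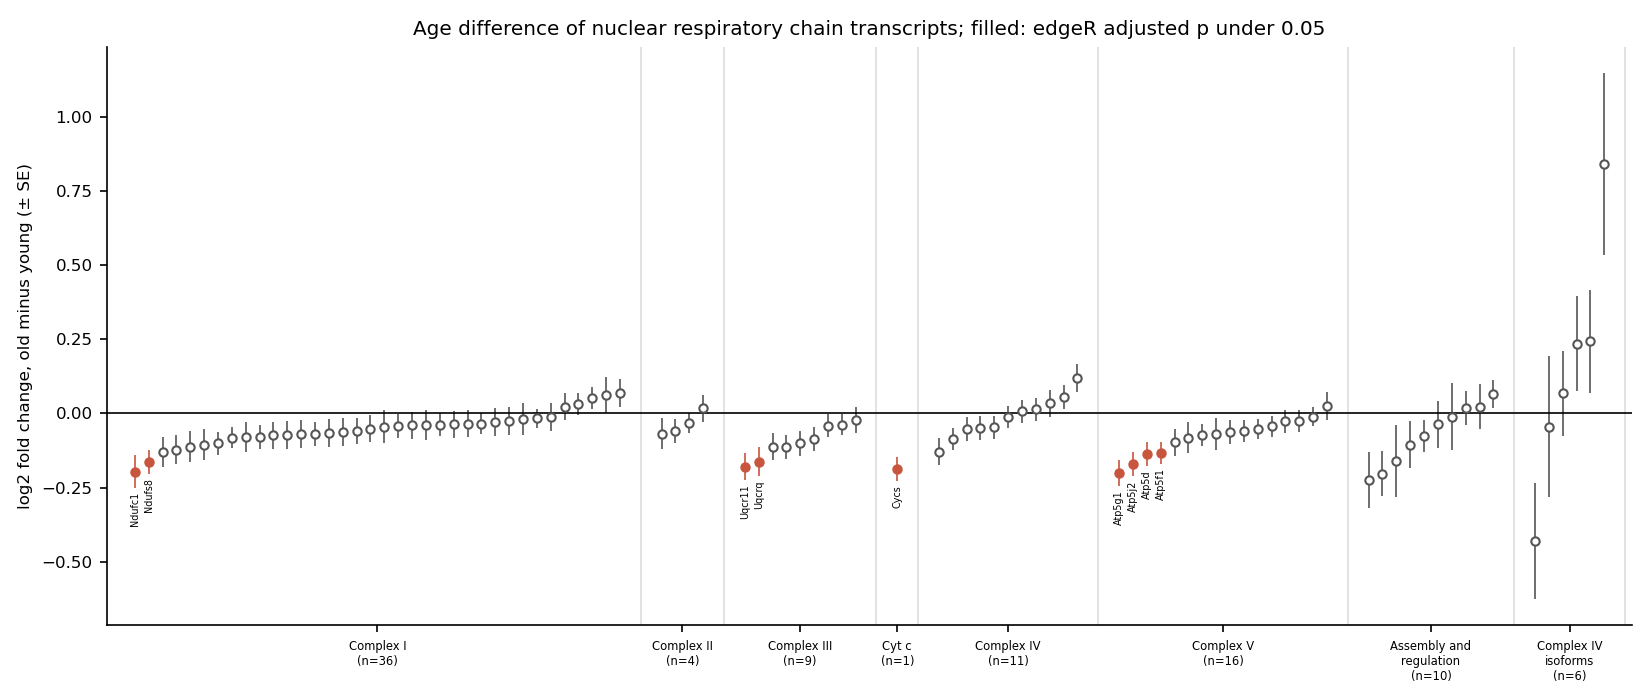
Log2 fold change of old against young brain (y axis, points, with the SE as bars) for the 93 tested genes, grouped by complex and ordered by value within a group (x axis, n is the number of genes). The 9 filled points are the genes with an adjusted p under 0.05, all below 0, and the widest bars belong to the 6 weakly expressed isoforms of complex IV.

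Complex I oxidises NADH and is the largest of the complexes, with 36 nuclear subunits tested. Of these, 2 were lower (5.56%, against 8.35% of the equally abundant genes) and 0 were higher. Below 0 lay 31 of 36, with a median log2 fold change of -0.05. Ndufs8, a core subunit that carries iron-sulfur clusters, stood at 57.1, 59.5, 54.6, 56.2 and 57.3 CPM in the young mice and at 50.3, 50.6, 52.4 and 50.0 CPM in the old mice. All 4 old mice lay below the lowest young mouse, and the gene fell by 10.7% (log2 fold change -0.16 ± 0.04 SE, adjusted p = 0.017, edgeR). Ndufc1, a small supernumerary subunit of the membrane arm, stood at 26.8, 27.4, 25.2, 26.7 and 28.2 CPM in the young and at 23.8, 24.5, 23.1 and 22.3 CPM in the old mice, again without overlap (log2 fold change -0.20 ± 0.05 SE, adjusted p = 0.028, edgeR). Ndufc1 lost its call without old replicate 4 or 5 or without young replicate 1, 2 or 5 (adjusted p up to 0.085, edgeR).

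The other core subunits of complex I did not follow Ndufs8. Ndufs1, the subunit with the largest share of the iron-sulfur clusters, stood at 136 ± 2.53 CPM (SD, n = 5) in young and 135 ± 1.71 CPM (SD, n = 4) in old brain, and the 95% interval of its log2 fold change ran from -0.08 to 0.05. Ndufv1, which binds NADH, had a log2 fold change of 0.05 ± 0.04 (SE), which lay at -0.11 on the TPM scale, above the median of all genes there (-0.14), and did not pass the test on either. The supernumerary Ndufv3 had the highest value of the complex, 0.07 ± 0.05 (SE, adjusted p = 0.40, edgeR), and at -0.10 on the TPM scale it lay above the median of all genes as well. By position, the median log2 fold change was -0.04 over the 16 subunits of the matrix arm and -0.06 over the 19 of the membrane arm, with 1 gene lower in each. Besides the called pair, Ndufa10, Ndufb10 and Ndufs6 also had every old mouse below every young mouse without passing the test. They were picked out after their values were seen. Such separation was found in 5 of the 36 subunits, beside 6.08% of all genes and 9.84% of the equally abundant ones.

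Complex II, which links the citric acid cycle to the chain, had 0 of 4 genes past the test, and 0 at an unadjusted p under 0.05 by edgeR or DESeq2. Sdha, its flavoprotein, was the most abundant of the 4, with 410, 420, 421, 405 and 428 CPM in the young and 408, 403, 415 and 404 CPM in the old mice. The groups overlapped, and the 95% interval of the log2 fold change ran from -0.10 to 0.03. The log2 fold changes of the iron-sulfur subunit Sdhb and the membrane anchors Sdhc and Sdhd were 0.02, -0.06 and -0.07.

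In complex III, which hands electrons to cytochrome c, all 9 nuclear subunits lay below 0, with a median log2 fold change of -0.10. The test called 2 of the 9 lower (22.2%, against 8.35% of the equally abundant genes), both small supernumerary subunits. Uqcr11 stood at 56.3, 57.6, 55.7, 53.3 and 60.7 CPM in the young and at 50.9, 48.9, 48.6 and 51.7 CPM in the old mice. The ages did not overlap (log2 fold change -0.18 ± 0.05 SE, adjusted p = 0.017, edgeR), and without old replicate 4 the adjusted p was 0.0504. Uqcrq stood at 70.3, 71.1, 64.9, 66.3 and 68.1 CPM in the young and at 58.5, 56.1, 63.0 and 65.9 CPM in the old mice. One old mouse stood above the lowest young mouse (log2 fold change -0.16 ± 0.05 SE, adjusted p = 0.041, edgeR), and the call was lost without old replicate 1 or 3 or young replicate 1, 2 or 5 (adjusted p up to 0.12). The core subunits Cyc1 (cytochrome c1) and Uqcrfs1 (the Rieske iron-sulfur protein) had log2 fold changes of -0.10 ± 0.04 and -0.11 ± 0.04 (SE), with adjusted p-values of 0.13 and 0.088 (edgeR). Uqcrc2 lay nearest to 0, at -0.02.

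Cytochrome c, the carrier between complexes III and IV, which also starts caspase activation when released from mitochondria, was among the clearest of the falls. Cycs stood at 74.8, 73.1, 73.9, 75.9 and 75.3 CPM in the young and at 64.8, 68.7, 61.4 and 67.6 CPM in the old mice. The young mice lay within 3 CPM of each other, and the highest old mouse was below all of them. It fell by 12.1% (log2 fold change -0.19 ± 0.04 SE, adjusted p = 0.0070, edgeR), and the call held with each mouse left out in turn (adjusted p up to 0.027).

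Complex IV, which reduces oxygen, showed no common direction. Of its 11 nuclear subunits other than tissue isoforms, with Ndufa4 counted among them, 6 lay below 0 and 5 above, with a median log2 fold change of -0.01, and 0 passed the test in either direction by edgeR or DESeq2. At an unadjusted p under 0.05, 2 were lower and 1 higher (edgeR). Cox4i1, the largest nuclear subunit, stood at 324, 372, 337, 315 and 337 CPM in the young and at 359, 325, 349 and 347 CPM in the old mice, with overlap (log2 fold change 0.03, 95% interval -0.06 to 0.12). Cox6a1 had the highest value, 0.12 ± 0.05 (SE, adjusted p = 0.12, edgeR), which lay at -0.05 on the TPM scale, above the median of all genes there (-0.14), and it passed the test without old replicate 3 (adjusted p = 0.043). Cox8a, at 0.06, lay at -0.11 on the TPM scale, also above that median. At the other end, Cox5a, named after its values were seen, had a log2 fold change of -0.13 ± 0.04 (SE, adjusted p = 0.071, edgeR) and passed without old replicate 4 (adjusted p = 0.036). Cox7b was the single subunit of complex IV in which every old mouse stood below every young mouse, without a call (-0.09, adjusted p = 0.16, edgeR). Such separation was found in 9.84% of the equally abundant genes. As a share of the summed TPM of all 95 genes, complex IV made up 28.0% ± 0.399 (SD, n = 5) in young and 29.2% ± 0.533 (SD, n = 4) in old brain. The share of complex III was 11.1% ± 0.117 and 10.6% ± 0.227, that of complex V 21.9% ± 0.0867 and 21.5% ± 0.288, and that of complex I 31.4% ± 0.284 and 31.1% ± 0.108.

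Complex V held 4 of the 9 falls, 25% of its subunits, against 8.35% of the equally abundant genes. Of its 16 subunits, 15 lay below 0, with a median log2 fold change of -0.07, and the 4 called genes came from 4 different parts of the enzyme. Atp5g1, of the c ring, stood at 111, 120, 122, 110 and 110 CPM in the young and at 104, 94.1, 101 and 99.1 CPM in the old mice. Atp5j2, subunit f of the membrane part, stood at 72.7, 78.7, 76.4, 74.8 and 78.0 CPM in the young and at 65.9, 69.0, 65.3 and 70.1 CPM in the old mice. In both genes all old mice lay below all young mice. The log2 fold change was -0.20 ± 0.04 for Atp5g1 (SE, adjusted p = 0.0063) and -0.17 ± 0.04 for Atp5j2 (SE, adjusted p = 0.011, edgeR), and both calls held with each mouse left out in turn (adjusted p up to 0.022 and 0.035).

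The other called pair of complex V was less stable. Atp5f1, subunit b of the peripheral stalk, stood at 166, 164, 168, 172 and 179 CPM in the young and at 158, 157, 158 and 147 CPM in the old mice, without overlap (log2 fold change -0.13 ± 0.04 SE, adjusted p = 0.031, edgeR). Its call was lost without old replicate 5 or young replicate 3, 4 or 5 (adjusted p up to 0.11). Atp5d, the delta subunit of the central stalk, stood at 118, 133, 129, 122 and 128 CPM in the young and at 116, 109, 115 and 119 CPM in the old mice, with overlap (log2 fold change -0.14 ± 0.04 SE, adjusted p = 0.040, edgeR). Its call was lost without old replicate 1, 3 or 4 or young replicate 2, 3 or 5 (adjusted p up to 0.10). The catalytic core did not pass the test. Atp5b, the beta subunit and the most abundant of the 95 genes in CPM, stood at 945 ± 21.9 CPM (SD, n = 5) in young and 912 ± 21.9 CPM (SD, n = 4) in old brain, with a 95% interval of the log2 fold change from -0.12 to 0.02. Atp5a1, the alpha subunit, stood at 759 ± 17.5 CPM and 753 ± 12.5 CPM, with an interval from -0.08 to 0.06.

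**Figure D2:**
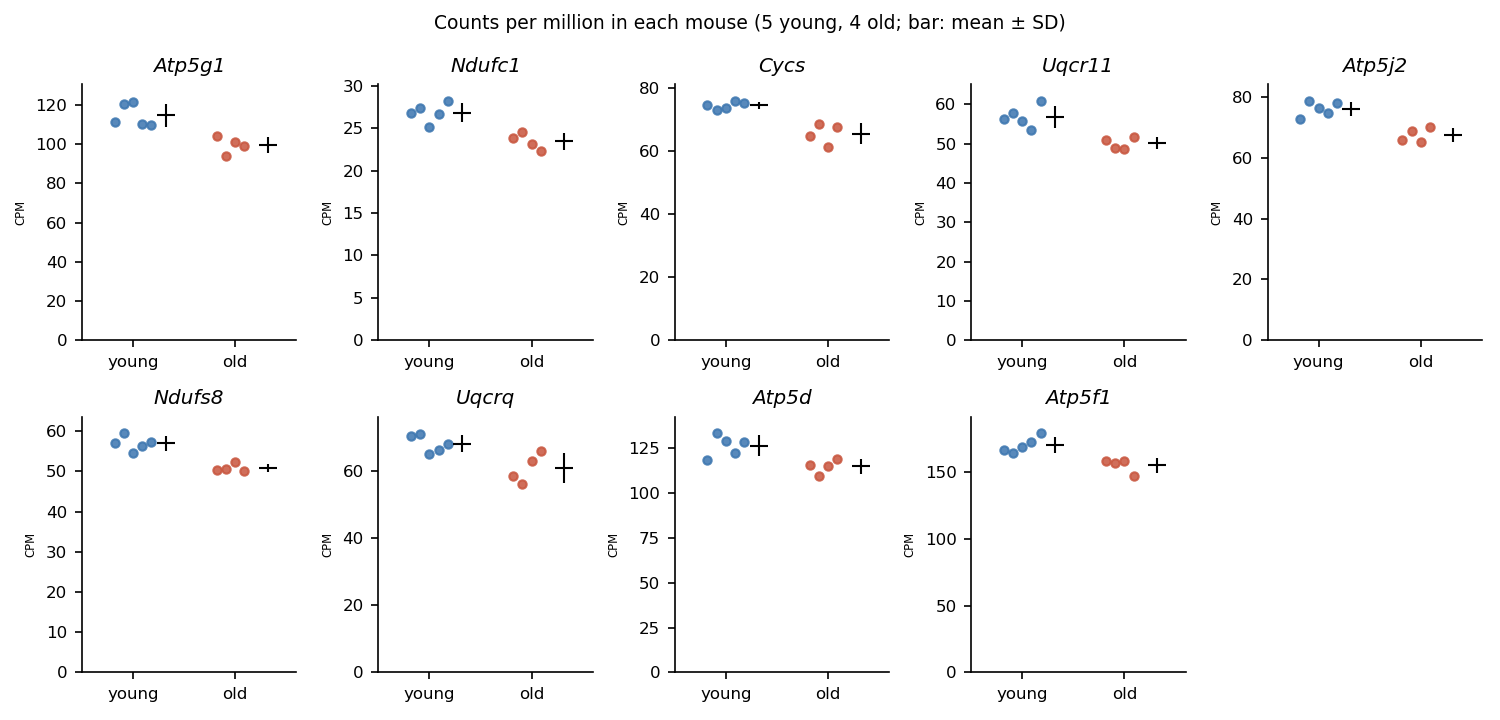
CPM (y axis, starting at 0) of the 9 genes lower in old brain, 1 point per mouse (5 young in blue, 4 old in red), with the mean and SD as a black bar. The ages are separate in 7 panels and overlap in Uqcrq and Atp5d.

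The c ring offered a comparison of 3 genes for the same mature protein. In old brain Atp5g1 fell, while Atp5g2 and Atp5g3 did not pass the test. Atp5g2 stood at 41.8, 45.3, 45.2, 42.1 and 43.0 CPM in the young and at 45.3, 43.0, 41.7 and 46.6 CPM in the old mice, with full overlap (log2 fold change 0.02, 95% interval -0.07 to 0.12). Atp5g3 stood at 182, 191, 184, 179 and 191 CPM in the young and at 186, 170, 176 and 172 CPM in the old mice, mostly lower in the old (log2 fold change -0.07 ± 0.04 SE, adjusted p = 0.24, edgeR). Atp5g1 made up 33.4% ± 0.979 (SD, n = 5) of the CPM of the 3 genes in young and 31.1% ± 0.449 (SD, n = 4) in old brain. The log2 ratio of Atp5g1 to Atp5g3 was lower in every old mouse (-0.854 to -0.795) than in every young mouse (-0.792 to -0.592), a difference of -0.13. An exact two-sided permutation test over all splits of the 9 mice gave p = 0.016, where the smallest possible p is 0.0079, and an adjusted p of 0.14 over the 9 isoform ratios tested. The difference between the genes therefore did not pass the correction.

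**Figure D3:**
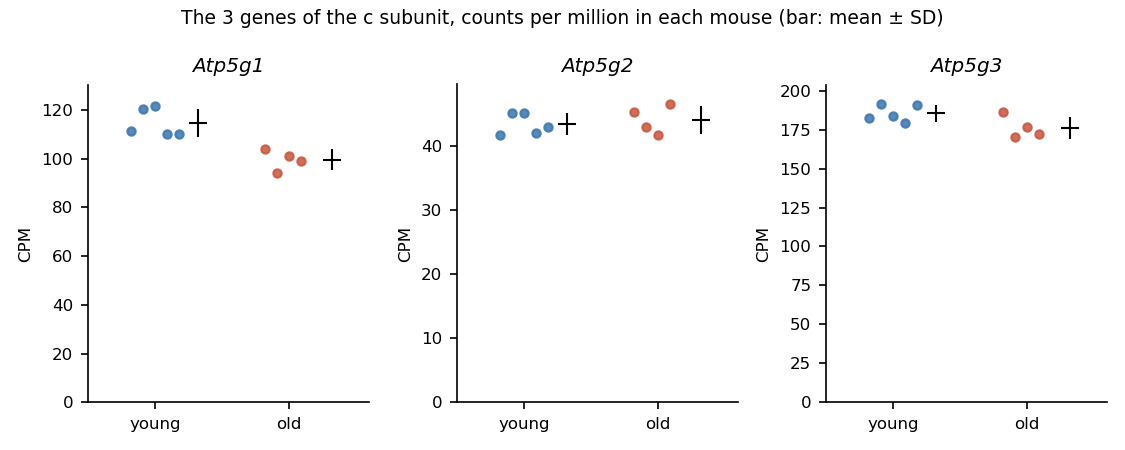
CPM (y axis, starting at 0) of Atp5g1, Atp5g2 and Atp5g3 in each mouse (5 young in blue, 4 old in red), with the mean and SD as a black bar. The old mice lie below the young in Atp5g1, and the ages overlap in Atp5g2 and Atp5g3.

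Core and supernumerary subunits had nearly the same median log2 fold change. It was -0.05 over the 25 core subunits, of which 22 lay below 0 and 4 were lower (16%). It was -0.05 over the 51 supernumerary subunits, of which 42 lay below 0 and 4 were lower (7.84%). Among the equally abundant genes 8.35% were lower. No test was made between these classes. The assembly factors among the 95 genes, Ndufaf1 to Ndufaf8 for complex I and Cox7a2l, which takes part in building supercomplexes, had 0 of 9 past the test by edgeR or DESeq2 (2 lower at an unadjusted p under 0.05) and 7 of 9 below 0. Their median was -0.08, and their SEs were mostly wider, since they are less abundant. Ndufaf2 had the lowest value, -0.22 ± 0.09 (SE, adjusted p = 0.13, edgeR). Ndufaf5, which modifies a core subunit, stood at 23.8, 20.7, 22.1, 21.5 and 24.2 CPM in the young and at 16.9, 18.6, 20.6 and 21.8 CPM in the old mice. The ages overlapped (log2 fold change -0.20 ± 0.08 SE, adjusted p = 0.096, edgeR), and the gene passed the test without old replicate 5 (adjusted p = 0.049). Ndufaf1, Ndufaf3, Ndufaf4, Ndufaf6, Ndufaf7 and Ndufaf8 lay between -0.16 and 0.02. Cox7a2l had the highest value, 0.06 ± 0.05 (SE), and lay at -0.10 on the TPM scale, above the median of all genes there (-0.14). Atp5s, a coupling factor of complex V that was not counted with the subunits, lay at 0.02.

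A list of 48 further assembly factors whose names fall outside the rule had 46 tested, of which 4 were lower, 0 were higher and 36 lay below 0, with a median of -0.08. The 4 were Acad9, a complex I assembly factor (log2 fold change -0.26 ± 0.05 SE, adjusted p = 0.0057, edgeR), Bcs1l, which inserts the Rieske protein into complex III (-0.28 ± 0.08 SE, adjusted p = 0.027), Cox14, which acts in the assembly of COX1 (-0.17 ± 0.04 SE, adjusted p = 0.019), and Lrpprc, which stabilises mitochondrial messenger RNA (-0.14 ± 0.04 SE, adjusted p = 0.033). Their share of 8.70% stands beside 4.89% for all genes and 8.35% for genes in the range of the structural subunits (4.57 to 9.86 log2 CPM). The mean log2 CPM of these 48 genes was 3.98 in young brain, below that range.

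The mean log2 CPM of each group of subunits gave the spread between animals. For complex III it ran from 6.40 to 6.48 in the young and from 6.31 to 6.39 in the old mice, and for complex V from 6.89 to 6.98 and from 6.82 to 6.88. The ages did not overlap in these complexes or in cytochrome c. For complex I the means ran from 5.90 to 5.96 and from 5.84 to 5.91, with overlap of a single old mouse. For complex IV they ran from 7.00 to 7.10 and from 6.99 to 7.08, and for the assembly factors from 4.20 to 4.37 and from 4.11 to 4.27, with wide overlap in both.

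**Figure D4:**
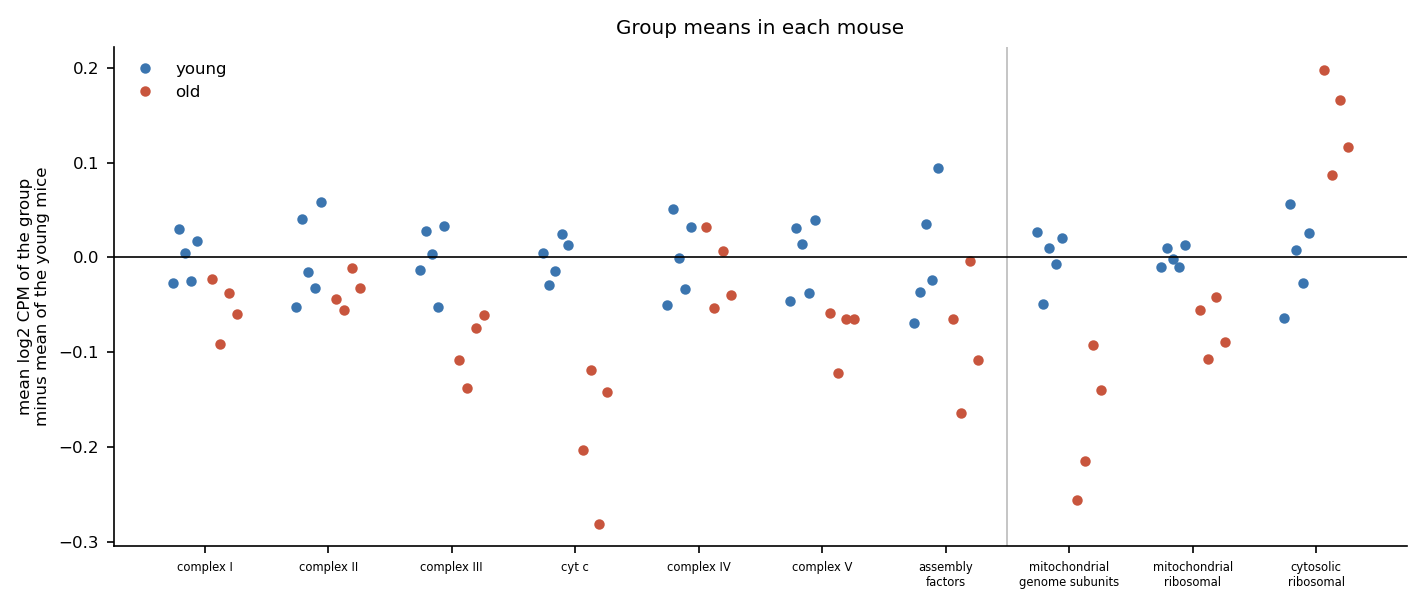
Mean log2 CPM over the genes of a group in each mouse, minus the mean of the young mice (y axis), for the complexes, cytochrome c, the assembly factors and, right of the grey line, 3 comparison lists (x axis). Blue points are the 5 young and red points the 4 old mice; old lies wholly below young for complexes III and V, cytochrome c, the mitochondrial genome and the mitochondrial ribosome, and wholly above for the cytosolic ribosome.

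The partners of these genes were measured in the same libraries. All 13 protein-coding genes of the mitochondrial genome lay below 0, with a median of -0.17. The test called 5 of 13 lower (38.5%, against 4.89% of all genes). These were mt-Nd1 (-0.18 ± 0.04 SE), mt-Nd2 (-0.33 ± 0.05), mt-Nd4 (-0.17 ± 0.04), mt-Cytb (-0.16 ± 0.04) and mt-Co3 (-0.36 ± 0.09), with adjusted p-values between 0.0011 and 0.018 (edgeR). Their levels are uneven, from 12237 CPM for mt-Co1 to 2.22 CPM for mt-Atp8 in young brain. The called mt-Co3 stood at only 8.61 CPM in young and 6.69 CPM in old brain. Several of the 13 have close copies in the nuclear genome, where reads matching both were not counted. Levels of single mitochondrial genes are therefore uncertain. Of 78 mitochondrial ribosomal proteins, which translate the mitochondrial transcripts, 2 were lower, 0 were higher and 61 lay below 0 (median -0.07). The 2 are 2.56% of the list, below the 4.89% of all genes. Of 79 cytosolic ribosomal proteins, 49 were higher (beside 6.09% of all genes), 0 were lower and all 79 lay above 0 (median 0.15). Of 19 known regulators of respiratory genes, 0 passed the test in either direction by edgeR or DESeq2 (1 lower at an unadjusted p under 0.05), with a median of -0.00. They include the coactivator Ppargc1a (-0.01 ± 0.05 SE), Nrf1 (0.06 ± 0.06), Gabpa (0.00 ± 0.06), Tfam (0.05 ± 0.06) and Esrra (-0.10 ± 0.04, adjusted p = 0.14, edgeR).

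Complex IV has isoforms that replace a widely expressed subunit in particular tissues, such as heart, skeletal muscle, lung or testis. Of 8 such genes, 6 were tested and 0 passed by edgeR or DESeq2, with 1 lower and 1 higher at an unadjusted p under 0.05 (edgeR). Their levels were low, from 0.63 CPM for Cox8b to 3.41 CPM for Cox6b2 in young brain. Cox8c had 0 counts in all 9 libraries, and Cox7b2 had 1 to 7. Cox8b, a muscle and brown fat isoform, stood at 0.575, 0.609, 1.10, 0.435 and 0.432 CPM in the young and at 1.43, 0.917, 1.26 and 0.763 CPM in the old mice. One young mouse stood above 2 old mice, and the counts behind these values were 7 to 27 (log2 fold change 0.84 ± 0.31 SE, adjusted p = 0.089, edgeR). Without young replicate 3 the adjusted p was 0.030. Cox7a1, the heart and muscle partner of Cox7a2, stood at 1.67, 1.94, 2.34, 2.56 and 2.59 CPM in the young and at 1.27, 1.62, 1.75 and 1.94 CPM in the old mice (log2 fold change -0.43 ± 0.20 SE, adjusted p = 0.18, edgeR). The remaining isoforms Cox4i2, Cox6a2, Cox6b2 and Ndufa4l2 had log2 fold changes of -0.04, 0.23, 0.07 and 0.24.

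Ratios of an isoform to its partner were compared by exact two-sided permutation tests, and 0 of 9 passed an adjusted p of 0.05. Cox8b to Cox8a differed by 0.67 between old and young on the log2 scale and Cox7a1 to Cox7a2 by -0.41, each with p = 0.063 and an adjusted p of 0.14 (exact permutation). Ndufa4l2 to Ndufa4 differed by 0.28 (p = 0.079, adjusted p = 0.14, exact permutation). Markers of muscle and brown fat were read in the same libraries, where 6.09% of all genes were called higher. Of 8 skeletal muscle markers 4 were tested, 0 passed by edgeR (1 higher at an unadjusted p under 0.05) and 1 was higher by DESeq2, and their summed level lay between 5.17 and 11.7 CPM in young mice and between 5.08 and 42.1 CPM in old mice. The highest of these was old replicate 4, which also held the highest Cox6a2 (4.76 CPM), and the other old mice did not exceed the young range. Of 5 heart muscle markers 4 were tested and 1, Tnnt2, was higher (log2 fold change 0.87 ± 0.15 SE, adjusted p = 0.0014, edgeR), with a summed level between 11.1 and 14.3 CPM in young mice and between 14.6 and 17.1 CPM in old mice. Of 4 brown fat markers, Dio2 (60.5 CPM in young and 62.2 CPM in old brain) and Cidea (3.04 and 3.10 CPM) were tested and did not pass by edgeR or DESeq2, with 0 at an unadjusted p under 0.05, while Ucp1 lay at 0 to 0.412 CPM and Elovl3 at 0 in all libraries. The part of RNA from these tissues in the isoform values was not tested.

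**Figure D5:**
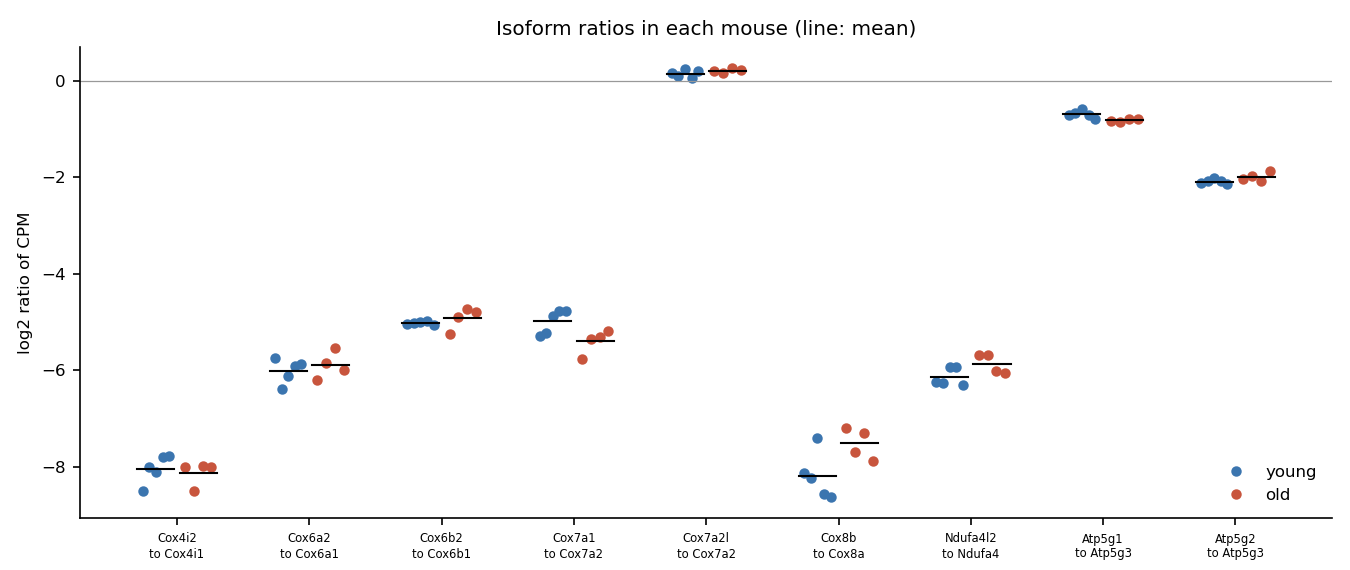
Log2 ratio of the CPM of an isoform to that of its partner (y axis) for the 9 pairs tested (x axis), 1 point per mouse (5 young in blue, 4 old in red), with the group mean as a line. The tissue isoforms of complex IV lie 5 to 8 log2 units below their partners, and the ages are separate, narrowly, in Atp5g1 to Atp5g3.

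Markers of other cell types were also compared. For scale, 4.89% of all genes tested were called lower and 6.09% higher. Of 12 neuronal markers 3 (Stmn2, Thy1 and Tubb3) were lower and 0 were higher, with 9 below 0 and a median of -0.06. The 3 above 0 were Gad1 (0.32 ± 0.14 SE), Gad2 (0.10 ± 0.06) and Syt1 (0.09 ± 0.06). The summed level of the 12 lay between 7391 and 7766 CPM in young brain and between 7105 and 7578 CPM in old brain. Of 8 endothelial markers 3 were higher (342 to 355 CPM summed in the young, 404 to 508 in the old), of 8 microglial markers 1 was higher (229 to 317 and 299 to 357 CPM) and of 5 blood markers 3 were higher (86.1 to 116 and 128 to 409 CPM). Astrocyte markers had 0 of 8 past the test by edgeR (2 lower and 1 higher at an unadjusted p under 0.05), 1 lower and 1 higher by DESeq2, and a median of 0.03, and oligodendrocyte markers 2 of 8 lower and 2 of 8 higher. Of 9 markers of pericytes and vascular smooth muscle 2 were higher (194 to 215 and 205 to 237 CPM summed). Of 6 ependymal markers 1 was lower and all 6 lay below 0, with a median of -0.44 (25.9 to 35.5 and 20.03 to 26.02 CPM). Of 6 parvalbumin interneuron markers 1 was higher and 5 lay below 0, with a median of -0.13 (1422 to 1562 and 1299 to 1448 CPM). Choroid plexus markers had 0 of 6 past the test by edgeR or DESeq2 (1 higher at an unadjusted p under 0.05) and a median of -0.07 (535 to 694 and 443 to 746 CPM). Markers of brain regions also varied between mice. The summed cerebellar markers lay between 541 and 753 CPM in young brain and between 359 and 671 CPM in old brain. All 6 lay below 0 (median -0.33), and 0 passed by edgeR or DESeq2 (1 lower at an unadjusted p under 0.05 by DESeq2). The olfactory bulb markers lay between 25.2 and 90.6 CPM and between 24.7 and 184 CPM. All 5 lay above 0 (median 1.09), and 0 passed by edgeR or DESeq2. The part of these differences in the falls of the respiratory genes was not tested. Young replicate 4 had the highest microglial marker level of the young mice. Without it, 8 of the 93 genes were lower, Atp5f1 being the one lost.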

How the data were processed

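Whole brain RNA of 5 young and 4 old mice was analysed, grouped by the sample titles. The authors trimmed reads with Trimmomatic, aligned them to GRCm38 with STAR and counted uniquely mapped reads on exons with featureCounts. They deposited whole-number counts per gene without normalization, normalized counts (a signal, each library divided by 1 size factor) and TPM values, whose gene lengths are not given in the sources used here. A column of sample values in each of the deposited tables (1 per table) had no matching sample and was not used.

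Counts of 18492 genes kept by filterByExpr (minimum count 10, minimum total 15) were compared with edgeR 4.0.16 (TMM, robust quasi-likelihood test, Benjamini-Hochberg) in R 4.3.3. Log2 CPM used a prior count of 2. TPM and normalized counts were tested as alternatives with limma 3.58.1 on log2(value + 1), and TPM also with a pseudocount of 0.1. DESeq2 1.42.0, other size factors, no filter, offsets for length and GC content, stricter thresholds, a replicate block and each mouse left out were further alternatives, and the fit without the robust option was added after seeing the data. Symbols, overlaps and positions came from GENCODE M21 (49056 of 49315 IDs matched). Isoform ratios were tested by exact permutation. The fit was tested on simulated data. Named genes were all members past an adjusted p of 0.05, the extremes of each complex, the isoform pairs, the Ndufaf genes and chosen core subunits. The members and lists were chosen with earlier results of these data known. Same-age libraries differed beyond sampling noise. The p-values measure the spread between these 9 mice.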

Additional observations from a re-analysis of the deposited data

Results flagged for a closer look

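In 8 combinations of a gene, group mean or ratio with an age, 1 mouse stood far from the others of its age by Dixon's test, where chance alone gives 6.3 over all those examined (1 in 20). Old replicate 3 was the low mouse in 5 of them. Its log2 CPM was 6.755 for Cyc1 (6.841 to 6.853 in the other old mice) and -0.1674 for Cox4i2 (0.4301 to 0.4746), its log2 ratio of Cox4i2 to Cox4i1 was -8.512 (-8.014 to -7.992), and its mean log2 CPM was 6.816 over the complex V subunits (6.873 to 6.879) and 6.864 over the core subunits (6.919 to 6.925). Old replicate 5 was low for Atp5f1, at 7.198 (7.294 to 7.307), and old replicate 4 was high for Cox6a2, at 2.285 (1.791 to 1.864). Young replicate 1 was low for Ndufaf8, at 2.552 (2.924 to 3.04 in the other young mice).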

How the results depend on the processing

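The count of 9 genes lower in old brain was the same 9 genes under DESeq2's Wald test, DESeq2 size factors, upper quartile factors and limma on the authors' normalized counts. It was 11 without a filter on low counts, 11 with offsets for length and GC content and 8 without the robust option, where Uqcrq was lost. With 1 mouse left out it ran from 5 to 8, and the count of higher genes from 0 to 1. At an adjusted p under 0.01 it was 2, and with a log2 fold change past 0.58 it was 0.

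On log2(TPM + 1) and log2(TPM + 0.1), where all genes had medians of -0.14 and -0.16, 0 genes were lower, and 1 (Cox8b) was higher with 0.1. The medians were -0.2155 and -0.2163 for all members, -0.2159 and -0.217 for complex I, -0.2095 and -0.2117 for complex II, -0.2643 and -0.2652 for complex III, -0.1762 and -0.1779 for complex IV, -0.2319 and -0.2337 for complex V, -0.216 and -0.2163 for core subunits, -0.2186 and -0.2197 for supernumerary subunits and -0.2383 and -0.2449 for assembly factors. With this shift of all genes, some named genes above 0 by more than their SE came to lie below 0 while staying above the median of all genes, namely Cox6a1 (-0.0476 and -0.0477), Cox7a2l (-0.102 and -0.103), Cox8a (-0.109 and -0.109), Ndufv1 (-0.112 and -0.113) and Ndufv3 (-0.0985 and -0.1003). The cause of the shift of all genes was not tested. With length and GC offsets the median was -0.0821 for complex I and -0.0831 for supernumerary subunits. With 1 mouse left out the median of complex IV ran from -0.0282 to 0.0028.

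The replicate block could use only mice whose number occurred at both ages, so it also left out young replicate 2. With it 4 genes were lower (Atp5g1, Atp5j2, Cycs and Uqcr11), and with the offsets as well 8. Leaving out young replicate 2 without a block gave 6, so the drop to 4 is not due to the block alone. The deviations of same-numbered old and young mice had correlations of -0.12 to 0.17, and those of differently numbered mice -0.22 to 0.16. With so few pairs, these values cannot tell whether the numbers pair the mice.

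The median SE of a log2 fold change was 0.09 over all genes and 0.05 over equally abundant ones, and the low counts of the tissue isoforms gave SEs of 0.14 to 0.31.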
